A study of Mus musculus with 16 samples.

Results

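A group of 10 genes that the ovary uses around ovulation were followed through testosterone treatment and its withdrawal. They were taken by gene symbol from the deposited expression tables: 3 EGF-like ligands (Areg, Ereg and Btc), 3 genes of the cumulus matrix (Has2, Tnfaip6 and Ptx3), the endothelin Edn2 and 3 nuclear regulators (Runx1, Runx2 and Cited2). All 10 were found among 55426 genes, and 9 of them passed the filter on low counts that left 18833 genes for testing. Areg did not pass it. The RNA came from whole ovaries of C57BL/6NHsd female mice, 1 ovary per mouse, with 4 mice in each of 4 groups. "On T" mice began weekly subcutaneous testosterone enanthate, 0.9 mg per dose, when 9 to 10 weeks old, and their ovaries were taken after 6 weeks, at 16 weeks of age. "Control for On T" mice, also 16 weeks old, received sesame oil alone and are called young controls here. "Post T" mice stopped testosterone after 6 weeks, resumed cycling and were examined 4 estrous cycles later, at 24 to 28 weeks of age. "Control for Post T" mice, oil-injected and 24 to 28 weeks old, are called older controls. Every mouse was killed in diestrus, so no group was sampled at ovulation itself.

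In the ovulating follicle, luteinizing hormone makes the granulosa cells of the follicle wall produce amphiregulin (Areg), epiregulin (Ereg) and betacellulin (Btc). These ligands are shed from the membrane and activate the EGF receptor on the cumulus cells around the oocyte. Cumulus cells then make hyaluronan through Has2, and Tnfaip6 and Ptx3 proteins help to cross-link it into the expanded cumulus matrix. Endothelin 2 is made briefly by granulosa cells before follicle rupture and contracts smooth muscle, while Runx1 and Runx2 are transcription factors that luteinizing hormone induces in granulosa cells. Runx2 is also known from the corpus luteum and from bone, and Cited2 binds the coactivators CBP and p300. The design asks which of these genes differed while testosterone was given, and which differed after it had been stopped.

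The libraries held 26598055 to 52659637 counts each, so that 3 counts corresponded to 0.0571 to 0.117 CPM (counts scaled to a common library size, with TMM factors). The ovarian identity of the tissue was clear from its markers: all 10 granulosa markers, all 10 luteal markers and all 9 oocyte markers had reads in all 16 libraries, with summed granulosa levels of 3951.8 to 13658.8 CPM, against 3.91 to 11.4 CPM for 6 markers of oviduct and cilia. Among the young controls, libraries 2 and 4 stood apart for several of the 10 genes, and results for the 10 genes that rest on them are given below with and without both. In whole-ovary RNA, fewer cells of a type and less RNA per cell cannot be told apart. The p-values come from tests of group differences judged against the spread between mice. The SE given with an edgeR log2 change is the size of the change divided by the square root of the test's F statistic. It therefore restates the p-value and is not a separate estimate.

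During testosterone treatment 6 of the 9 tested genes were lower than in young controls and none was higher by edgeR's quasi-likelihood test at an adjusted p under 0.05. Ereg, Tnfaip6, Edn2, Runx1, Runx2 and Cited2 fell, and the median change over the 9 was -0.74 on the log2 scale. DESeq2 also called none as higher, and 1 gene, Ptx3, was higher at an unadjusted p under 0.05. Among all genes tested in this comparison 9.27% were called, 5.03% as lower and 4.24% as higher, and the median change was -0.00519. For the same 6 genes, every On T library lay under every young control, which held in that direction for 7.92% of all genes. After testosterone was stopped, 2 of the 9 were lower than in older controls, Runx2 and Cited2, and none was higher with edgeR, with DESeq2 or at an unadjusted p under 0.05. The median change was -0.54. The background there was 12.3% called, 4.81% as lower and 7.49% as higher, with a median of -0.0101 over all genes. Has2 and Edn2, as well as Runx2 and Cited2, had Post T libraries that all lay under the older controls, a separation in that direction seen in 6.92% of all genes, but Has2 and Edn2 did not pass the test. The 2 comparisons have no library in common.

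**Figure D1:**
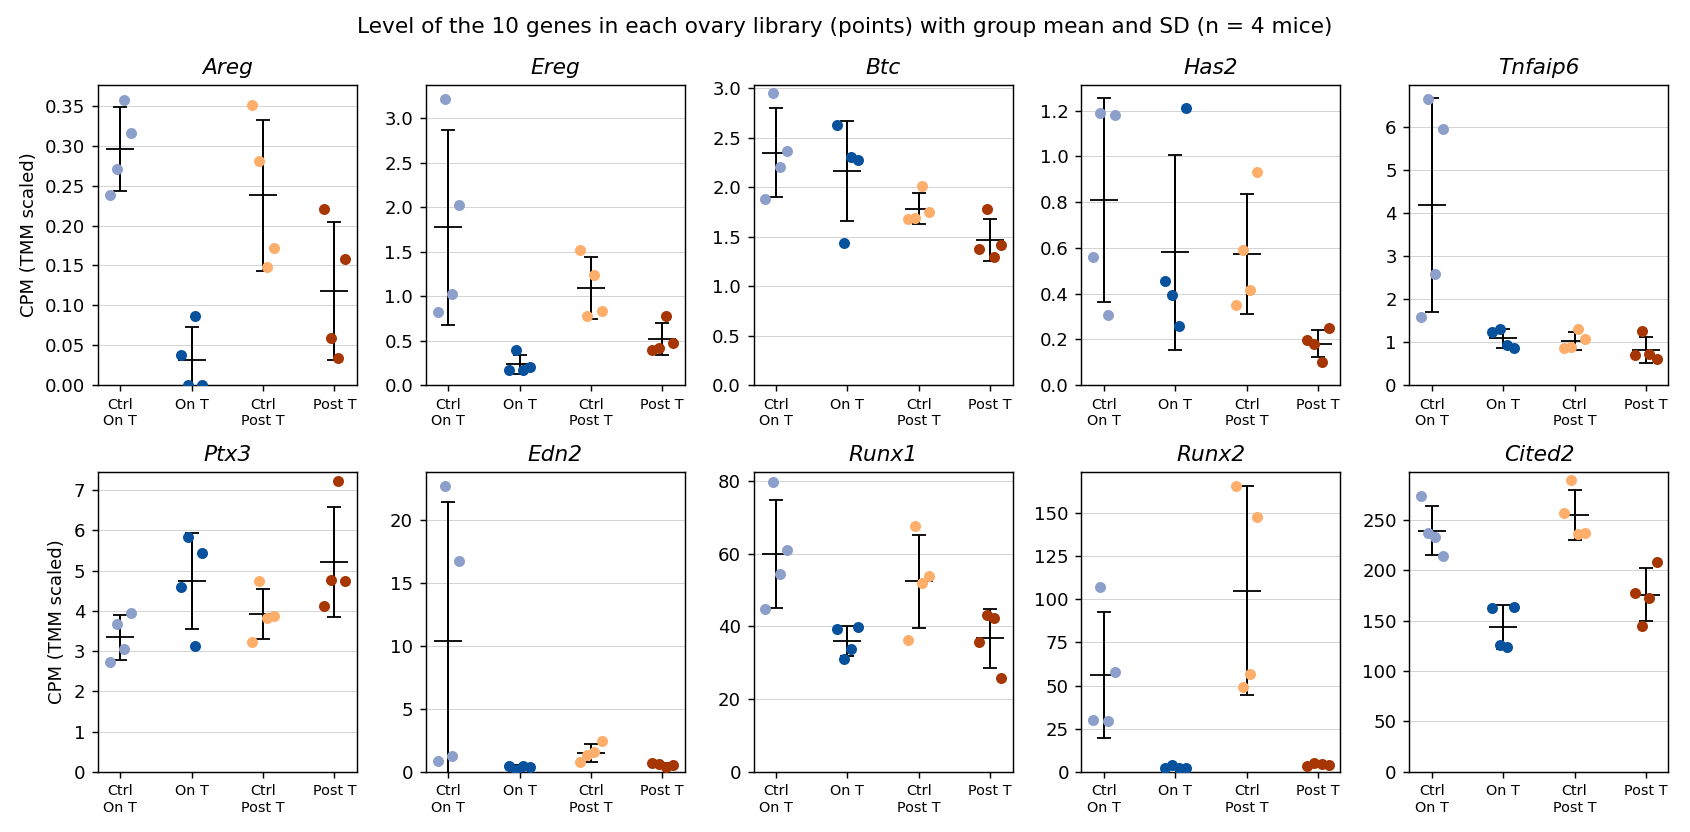
Level of each of the 10 genes in CPM (TMM scaled) in the 16 ovary libraries: points are single libraries, horizontal lines group means and bars the SD of 4 mice (the lower bar of Edn2 in young controls runs below the axis). Runx2 lies between 2.08 and 4.93 CPM in all 8 libraries of testosterone-treated mice and between 29.5 and 165.8 CPM in all 8 controls, and young controls 2 and 4 lie above the other libraries for Edn2, Tnfaip6 and Ereg.

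Ereg and Areg are neighbours on chromosome 5 (GRCm38), and Btc follows them. Ereg occupies chr5:91074622-91093646 on the plus strand, Areg begins 45953 bases further on at chr5:91139599-91148432 on the plus strand, and Btc lies 208829 bases beyond Areg at chr5:91357261-91402994 on the minus strand. All 3 are protein-coding. By TPM, which is per transcript length, the 3 ligands were among the least abundant of the 10 genes: in young controls Btc had 1.19 ± 0.251 TPM, Ereg 0.613 ± 0.395 TPM and Areg 0.405 ± 0.0777 TPM (SD, n = 4).

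Ereg, the epiregulin gene, showed 0.821, 3.22, 1.02 and 2.03 CPM in young controls 1 to 4, and 0.171, 0.393, 0.173 and 0.202 CPM in the On T libraries. The groups did not overlap, and young controls 2 and 4 were the highest. Ereg was 7.57-fold lower with testosterone (log2 change -2.92, SE 0.45, edgeR adjusted p = 0.000585), and it passed the test in all 17 alternative analyses that tested it, the one without young controls 2 and 4 (-1.98) included (adjusted p 4.77e-08 to 0.0172). In older controls Ereg stood at 1.52, 0.781, 1.24 and 0.836 CPM, and in Post T at 0.393, 0.416, 0.781 and 0.474 CPM. The highest Post T library reached the level of the lowest older control, and the difference of -1.09 (SE 0.42) did not pass the test (edgeR adjusted p = 0.116). With only the 8 libraries of that comparison in the fit it did (adjusted p = 0.0493, range over the alternatives 0.0493 to 0.343).

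Areg, the amphiregulin gene, was close to the limit of detection everywhere. It had 11, 8, 14 and 12 reads in young controls and 2, 0, 3 and 0 reads in On T libraries, that is 0.238 to 0.358 CPM against 0 to 0.0867 CPM. All 4 On T libraries were at or under 3 reads, and none overlapped the young controls. Because Areg did not pass the low-count filter it was tested without one (log2 change -3.05, edgeR adjusted p = 0.00658). Leaving out libraries loosened the filter in 7 other analyses, and Areg then passed it through control libraries, where it was highest. The fits without young control 3 or without young control 4 alone did not hold it. The 7 that did, the one without young controls 2 and 4 included, all called it (edgeR adjusted p 0.0035 to 0.0473), which adds no separate support. At such low reads the fitted change, -3.89 to -2.69 over these, depends on the prior count and is no bound. Older controls had 9, 9, 5 and 7 Areg reads and Post T libraries 9, 2, 1 and 7, so that these groups overlapped, and Areg was not called there without a filter (-0.87) or in 7 other analyses (edgeR adjusted p 0.227 to 0.607).

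Areg is shown with the bases before its first annotated exon because letters searched for in it lie close together next to the start. Sequences are from RefSeq (GRCm38.p6), whose table matched 8 of the 10 genes with 9 promoters of 250 bases before the start. They are written 5′ to 3′ along the gene's strand. Capitals mark matches to 7 motifs searched on both strands. They were CRE (TGACGTCA), bound by CREB, and AP-1 (TGAGTCA), bound by Fos and Jun proteins. RUNX letters (TGTGGT) and the CEBP palindrome (TTNCGNAA) stand for the RUNX and C/EBP families. The TATA box (TATAAA) and the GC box of SP1 (GGGCGG) are common near start sites, and the E-box (CACGTG) is bound by basic helix-loop-helix factors. No motif overlaps another in the sequences shown, and positions are counted back from the RefSeq start.
Areg, chr5:91139349-91139598: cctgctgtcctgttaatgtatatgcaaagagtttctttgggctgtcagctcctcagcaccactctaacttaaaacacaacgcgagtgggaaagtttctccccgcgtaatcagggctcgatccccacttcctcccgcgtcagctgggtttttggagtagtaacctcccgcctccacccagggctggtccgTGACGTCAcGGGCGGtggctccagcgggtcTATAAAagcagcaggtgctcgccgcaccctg

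The CRE letters, which the cAMP-responsive factor CREB is known to bind, began at position -61 of Areg, followed by a GC box at -52 and a TATA box at -31. Areg was the only one of the 9 promoters with the CRE letters and the only one with the TATA letters. Of 32851 mouse promoters in the same table and of the same length, 1.55% held the CRE letters and 12.4% the TATA letters. A GC box, found in 3 of the 9 promoters, occurred in 32.7% of all. A match describes letters and was not tested as a binding site.

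Btc, the betacellulin gene, gave 1.88, 2.95, 2.2 and 2.37 CPM in young controls and 2.63, 1.44, 2.31 and 2.28 CPM in On T libraries, which overlapped. In older controls it was 1.68 to 2.01 CPM and in Post T 1.29 to 1.78 CPM, again overlapping. Neither difference passed the test (log2 change -0.11, SE 0.2, edgeR adjusted p = 0.8; and -0.28, SE 0.2, adjusted p = 0.472). Whether Btc and Ereg responded unequally was not tested.

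Around these ligands, some other genes of the ErbB system were called. Of 18 listed ligands, receptors and sheddases 15 were tested. With testosterone 1 was higher and 2 were lower, beside 9.27% called among all genes, and after it 1 was lower, beside 12.3%. Tgfa, another ligand of the EGF receptor, fell from 49.9 ± 13.6 to 34.1 ± 0.983 CPM during treatment (log2 change -0.55, edgeR adjusted p = 0.023) and was 33.6 ± 2.72 CPM in Post T against 64.1 ± 7.05 CPM in older controls (log2 change -0.93, adjusted p = 0.000221). The On T call of Tgfa was lost in 9 of 18 alternatives, among them those without young control 2, young control 4, On T 1 or On T 4 (edgeR or limma adjusted p up to 0.388). Adam12, a metalloprotease that sheds such ligands, also fell during treatment (-0.81, edgeR adjusted p = 0.00795), and the neuregulin Nrg2 rose (0.67, adjusted p = 0.0163, lost without young control 3, at 0.0528, or On T 4, at 0.0503, or both young controls 2 and 4, at 0.0682, among alternatives of 0.000701 to 0.161).

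The receptor Egfr itself lay at 65.0 ± 3.94 CPM in young controls and 72.7 ± 10.3 CPM in On T libraries, and at 59.2 ± 10.1 and 60.3 ± 5.29 CPM in older controls and Post T (log2 changes 0.16 and 0.03, edgeR adjusted p = 0.477 and 0.936). The heparin-binding ligand Hbegf showed changes of 0.11 and 0.02 (edgeR adjusted p = 0.764 and 0.971), and Erbb4, at 0 to 0.32 CPM, was too low to test. Of 15 listed feedback inhibitors of EGF receptor signalling, all tested, 1 rose and 1 fell during treatment, and 1 was higher after it. The shares called among all genes were 9.27% and 12.3%. DESeq2 called 3 as higher and 2 as lower during treatment, and 1 as higher after it. Dusp6, a phosphatase of ERK, fell with testosterone from 35.9 ± 8.62 to 21.5 ± 2.2 CPM (log2 change -0.74, edgeR adjusted p = 0.00398). Lrig1, which promotes EGF receptor degradation, rose during treatment (0.43, edgeR adjusted p = 0.00147) and was higher after it (0.4, adjusted p = 0.00139, lost with limma on log2(TPM + 0.1) at 0.0561, range over the alternatives 8.33e-06 to 0.0561). The Dusp6 call was lost without young controls 2 and 4 (edgeR adjusted p = 0.138, range over the alternatives 0.000134 to 0.138). The medians of the ErbB list were 0.08 and -0.04, and those of the inhibitor list -0.04 and 0.

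Tnfaip6 fell during treatment, whereas Has2 and Ptx3 did not pass the test in either comparison. Tnfaip6 encodes TSG-6, which transfers heavy chains of inter-alpha-inhibitor onto hyaluronan, and lies at chr2:52038009-52056686 on the plus strand. It showed 1.58, 6.65, 2.58 and 5.95 CPM in young controls and 1.24, 1.31, 0.925 and 0.866 CPM in On T libraries. Every On T value was under every control, and the difference was 3.83-fold (log2 change -1.94, SE 0.38, edgeR adjusted p = 0.00355). Without young controls 2 and 4, the 2 highest, the change was -0.92 and no longer passed (edgeR adjusted p = 0.148, range over 18 alternatives 2.1e-05 to 0.148). The other 17 alternatives kept the call.

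In older controls Tnfaip6 was 0.857, 0.874, 1.3 and 1.06 CPM, near the On T level, and in Post T 0.688, 1.25, 0.713 and 0.609 CPM (log2 change -0.34, SE 0.4, edgeR adjusted p = 0.701). The 2 control groups therefore differed for Tnfaip6 by -2.02 (SE 0.38), which did not pass edgeR's test (adjusted p = 0.115). It passed with DESeq2 (adjusted p = 0.000329), without a low-count filter (0.0349) and without young control 1 (-2.29, 0.0197). Without young controls 2 and 4 the difference was -1.01 and did not pass (edgeR adjusted p = 0.209, range over 18 alternatives 0.000329 to 0.23). Age and cohort cannot be told apart in that comparison.

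Tnfaip6 is shown because 1 of its matches, AP-1, binds Fos and Jun family factors that ovulatory signals induce. The 146 bases before its first annotated exon hold the AP-1 letters at position -142 and a GC box at -171 from the RefSeq start, which lies inside the annotated first exon.
Tnfaip6, chr2:52037863-52038008: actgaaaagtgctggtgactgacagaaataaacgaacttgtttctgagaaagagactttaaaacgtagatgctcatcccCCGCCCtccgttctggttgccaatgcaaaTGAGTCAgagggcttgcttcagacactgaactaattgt

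AP-1 letters occurred in 4.46% of all promoters and in no other of the 9. The CEBP letters (2.04% of all promoters) were in none of the 9 windows, and the E-box letters (6.02%) were in those of Runx1 and Cited2.

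Has2, the main hyaluronan synthase of cumulus cells, lies at chr15:56665627-56694539 on the minus strand. It showed 0.562, 1.19, 0.307 and 1.18 CPM in young controls and 0.457, 0.393, 0.26 and 1.21 CPM in On T libraries. The ranges coincided, with On T library 4 the highest of all 16, and the change of -0.46 (SE 0.48) did not pass the test (edgeR adjusted p = 0.623). It was 0.4 without young controls 2 and 4, also not called (0.789, range over 16 alternatives 0.202 to 0.881). In older controls Has2 was 0.351, 0.593, 0.415 and 0.934 CPM, and in Post T 0.197, 0.178, 0.102 and 0.248 CPM, from 3 to 11 reads per library. No Post T library reached an older control, the fitted difference was 3.1-fold (log2 change -1.63, SE 0.56), and edgeR's adjusted p was 0.069. It passed in 3 of 16 alternatives, with DESeq2 (adjusted p = 0.0314), with the replicate numbers as a block (0.00671) and with only 8 libraries in the fit (0.0206), and the range over the alternatives was 0.00671 to 0.377.

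Ptx3, the long pentraxin of the cumulus matrix (chr3:66219910-66225805, plus strand), was the one tested gene with higher mean levels in both treated groups. It stood at 2.72, 3.66, 3.04 and 3.95 CPM in young controls and 4.59, 5.83, 3.12 and 5.43 CPM in On T libraries, and at 3.23, 4.75, 3.82 and 3.86 CPM in older controls and 4.13, 4.76, 7.23 and 4.74 CPM in Post T. The groups overlapped in both cohorts, and neither the change of 0.51 (SE 0.22, edgeR adjusted p = 0.174) nor that of 0.41 (SE 0.21, adjusted p = 0.281) passed the test, nor did either pass in 18 alternatives each.

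The listed genes of the cumulus matrix and of hyaluronan moved both ways. Of 25 genes 24 were found and 22 tested: 4 rose and 3 fell during treatment (median 0.13), and 4 were higher and 1 was lower after it (median -0.02). Among all genes 9.27% were called during treatment and 12.3% after it. Cemip, a protein required for hyaluronan breakdown, showed the largest drop of the list in both comparisons. It averaged 196.8 ± 129.6 CPM in young controls against 9.7 ± 2.11 CPM in On T, and 233.4 ± 80.2 CPM in older controls against 11.6 ± 3.39 CPM in Post T (log2 change -4.34 in both, edgeR adjusted p = 8.46e-06 and 2.92e-06). Without young controls 2 and 4 its On T change was -3.18, still called. The lysosomal hyaluronidase Hyal1 rose by 0.81 (edgeR adjusted p = 0.00633) and 0.96 (adjusted p = 0.000928), and the hyaluronan link protein Hapln3 by 0.97 (adjusted p = 0.00637) and 1.15 (adjusted p = 0.00112). The On T calls of Hyal1 and Hapln3 were lost without young controls 2 and 4 (edgeR adjusted p = 0.118 and 0.0833, ranges over the alternatives 0.000159 to 0.118 and 0.000258 to 0.0847), and both calls of Hapln3 in the 3 limma fits (up to 0.0847 in On T and 0.102 in Post T).

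Cd44, the main hyaluronan receptor, went in opposite directions. It fell from 32.7 ± 3.03 to 18.6 ± 4.78 CPM during treatment (log2 change -0.82, edgeR adjusted p = 0.00985, lost with limma on log2(TPM + 0.1) at 0.0576, range over the alternatives 0.000967 to 0.0576) and was 71.8 ± 6.42 CPM in Post T against 24.7 ± 6.7 CPM in older controls (1.53, adjusted p = 2.21e-05). The summed level of 10 macrophage markers, a cell type that also carries Cd44, was 2452.7 to 3794.6 CPM in Post T against 263.5 to 489.9 CPM in older controls, with 7 of the 10 higher, and 314.7 to 575.6 CPM in On T against 148.5 to 242.0 CPM in young controls, with 4 higher. Such a sum is weighted to the most abundant markers. The median log2 change of the 10 markers was 1.01 in Post T and 0.23 in On T. Of all genes, 7.49% were called as higher in Post T and 4.24% in On T. The part of macrophages in the Cd44 values was not tested. The synthase Has1 and the proteoglycan versican (Vcan) did not pass the test: Has1 had log2 differences of -0.51 and 0.63 (edgeR adjusted p = 0.704 and 0.661) and Vcan of -0.4 and -0.66 (adjusted p = 0.336 and 0.0779). Vcan passed in Post T with DESeq2 (adjusted p = 0.0358) and without older control 1 (edgeR, 0.0383) or 2 (0.0442).

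Edn2 spanned 27.7-fold from its lowest to its highest young control. It lies at chr4:120161206-120167360 on the plus strand and had 0.821, 22.7, 1.28 and 16.8 CPM in young controls 1 to 4, so that libraries 2 and 4 were far above libraries 1 and 3. On T libraries had 0.495, 0.164, 0.434 and 0.347 CPM, all under the lowest control. The fitted difference was 27.7-fold (log2 change -4.79, SE 0.87, edgeR adjusted p = 0.00209). It was -4.07 without young control 2 alone. Without young controls 2 and 4 it was -1.49 and did not pass (edgeR adjusted p = 0.0814, range over 18 alternatives 2.88e-07 to 0.0814), and the other 17 alternatives kept the call.

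In older controls Edn2 lay at 0.74, 1.31, 1.54 and 2.41 CPM and in Post T at 0.664, 0.624, 0.408 and 0.564 CPM, without overlap. The change of -1.42 (SE 0.83) did not pass the test when all groups shared an estimate of the spread (edgeR adjusted p = 0.348). It passed when the fit held only the 8 libraries of the older cohort (adjusted p = 0.0204, range over the alternatives 0.0204 to 0.629), which leaves out the widely spread young controls. The effect of treatment on Edn2 was not shown to differ between cohorts by the test of that difference (3.38, SE 1.19, edgeR adjusted p = 0.17), except without young control 1 (3.77, adjusted p = 0.0437). The difference was 0.1 without young controls 2 and 4 (edgeR adjusted p = 0.961, range over 25 alternatives 0.0437 to 0.961).

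The Edn2 promoter is shown because it and the Runx2 promoter were the only ones of the 9 with the RUNX letters, here as the reverse complement ACCACA at position -65. RUNX letters occurred in 14.0% of all promoters.
Edn2, chr4:120160956-120161205: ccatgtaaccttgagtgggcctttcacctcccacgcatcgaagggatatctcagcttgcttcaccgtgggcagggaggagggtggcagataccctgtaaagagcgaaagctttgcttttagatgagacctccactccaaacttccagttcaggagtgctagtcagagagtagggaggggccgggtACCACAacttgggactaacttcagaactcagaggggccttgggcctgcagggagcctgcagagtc

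Among the other endothelin genes, all 7 listed were tested, and during treatment 1 rose and 1 fell, beside 9.27% called among all genes. The peptide gene Edn3 rose from 3.85 ± 0.881 to 7.35 ± 1.71 CPM (log2 change 0.93, edgeR adjusted p = 0.00635), a call lost without young controls 2 and 4 (adjusted p = 0.108, range over the alternatives 0.00014 to 0.108), and Ece2, a converting enzyme, fell (-0.68, adjusted p = 0.0418). The Ece2 call was lost in 10 of 18 alternatives (edgeR adjusted p up to 0.182), including the omission of any 1 young control or of On T 1, 2 or 4. No gene of this list passed edgeR's test in Post T. Edn3 (0.62, edgeR adjusted p = 0.0504) was the 1 gene with an unadjusted p under 0.05 there and the 1 that DESeq2 called. The receptors Ednra and Ednrb had changes of 0.25 and 0.59 during treatment (edgeR adjusted p = 0.177 and 0.114) and of -0.14 and -0.12 after it (adjusted p = 0.487 and 0.82).

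**Figure D2:**
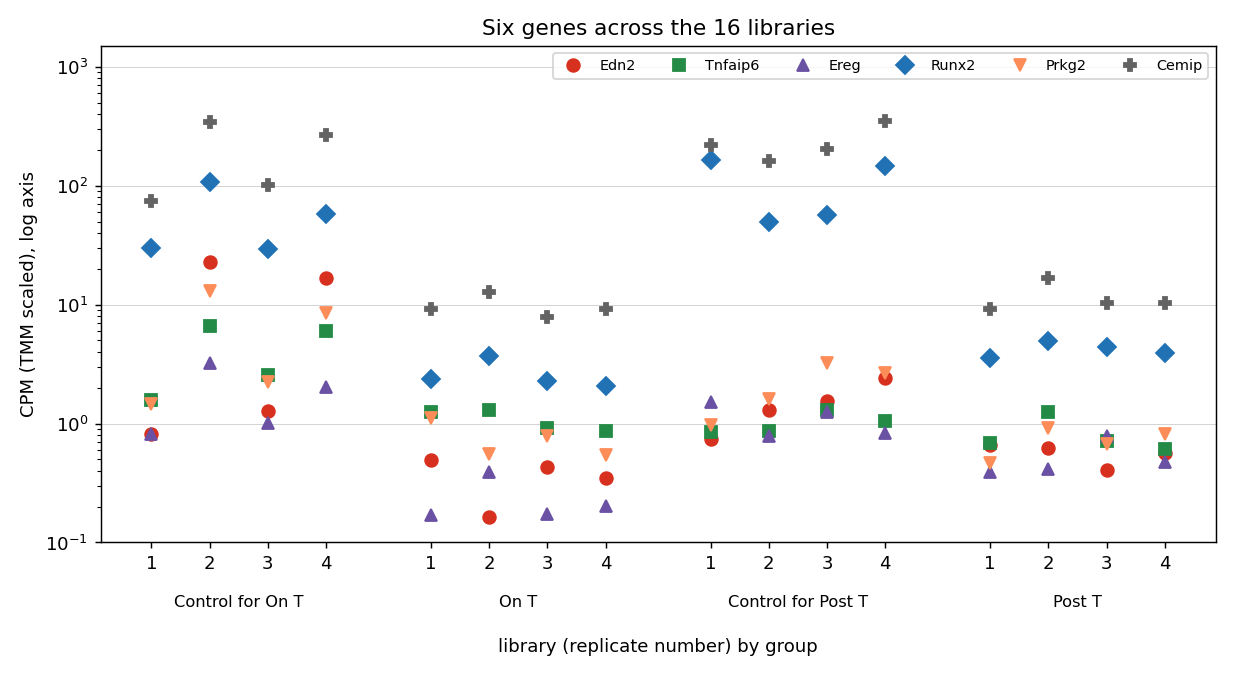
CPM (log axis) of Edn2, Tnfaip6, Ereg and Runx2 with Prkg2 and Cemip in each library by group and replicate number. All 6 are highest among young controls in libraries 2 and 4, and Runx2 and Cemip are higher in each of the 8 controls than in each of the 8 treated libraries.

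Runx2 was the member with the clearest separation in both cohorts. It lies at chr17:44495987-44814797 on the minus strand and showed 29.8, 107.1, 29.5 and 57.9 CPM in young controls against 2.38, 3.7, 2.28 and 2.08 CPM in On T libraries. In older controls it was 165.8, 49.4, 56.7 and 148.0 CPM, against 3.54, 4.93, 4.41 and 3.93 CPM in Post T. Every treated library of either cohort lay between 2.08 and 4.93 CPM and every control between 29.5 and 165.8 CPM, although the controls differed among themselves. Runx2 was 21.6-fold lower during treatment (log2 change -4.43, SE 0.49, edgeR adjusted p = 2.3e-05) and 25.0-fold lower after it (-4.65, SE 0.48, adjusted p = 4.22e-06). Both calls held in all 18 alternatives, with an On T change of -3.9 without young control 2 and of -3.51 without young controls 2 and 4, and the 2 effects were not shown to differ (difference -0.21, SE 0.63, edgeR adjusted p = 0.92).

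Runx2 held the RUNX letters at position -80 from its RefSeq start, again as ACCACA. That start lies inside the first annotated exon, and only a window at the match is shown.
Runx2, chr17:44814690-44814719: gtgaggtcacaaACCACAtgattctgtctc
An antisense gene, Runx2os1, shares 519 exon bases with Runx2, or 5.87% of the bases in Runx2 exons. At no more than 0.407 CPM in any library, it was far below Runx2, and whether the deposited counting used strand is not given in the sources used here. Shared exon bases with antisense genes were 3.42% for Ereg, 4.3% for Has2 and 0.881% for Runx1.

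Runx1 (chr16:92601466-92826149, minus strand) showed a smaller difference. It had 44.7, 79.8, 54.4 and 60.9 CPM in young controls and 39.2, 31.1, 33.8 and 39.7 CPM in On T libraries, which did not overlap. The change of -0.74 (SE 0.2) passed the test (edgeR adjusted p = 0.0279). The call was lost in 9 of 18 alternatives, including all 3 fits with limma and the omission of young control 2 (-0.56, edgeR adjusted p = 0.11), young control 4 (0.0668), On T 1 (0.0522), On T 2 (0.075) or On T 3 (0.0595). Without young controls 2 and 4 it was -0.46 (0.336), and the range over the alternatives was 0.00631 to 0.336. In older controls Runx1 was 36.2, 67.5, 51.9 and 53.7 CPM and in Post T 35.7, 43.0, 42.2 and 25.7 CPM, which overlapped (log2 change -0.52, SE 0.2, edgeR adjusted p = 0.114). It passed there without older control 1 (-0.63, edgeR adjusted p = 0.0399, range over the alternatives 0.0399 to 0.318).

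The third factor of the family, Runx3, stood at 1.12 to 2.27 CPM in young controls, 0.781 to 1.77 CPM in On T, 1.84 to 3.23 CPM in older controls and 2.61 to 4.11 CPM in Post T, and passed neither test (-0.38 and 0.36, edgeR adjusted p = 0.499 and 0.516). Cbfb, the shared partner that stabilises RUNX proteins on DNA, lay between 121.7 and 157.4 CPM in all 16 libraries (-0.03 and -0.08, edgeR adjusted p = 0.877 and 0.595). Of 16 listed partners, corepressors and bone genes, 15 were tested: 1 rose and 1 fell during treatment, and 2 were higher and 3 lower after it, with medians of -0.03 and 0.02. The shares called among all genes were 9.27% and 12.3%. Ibsp, the bone sialoprotein gene and a known RUNX2 target in bone, fell during treatment (-1.57, edgeR adjusted p = 0.00702) and after it (-1.19, adjusted p = 0.0397). The Post T call of Ibsp was lost in 11 of 16 alternatives, the omission of Post T 1, 2 or 3 or of any 1 older control among them (adjusted p up to 0.107), and its On T call without young controls 2 and 4 (0.0973). Spp1, osteopontin, was 119.1 ± 21.9 CPM in Post T against 22.1 ± 8.6 CPM in older controls (2.43, edgeR adjusted p = 1.27e-05) beside the macrophage marker levels given above, and their part in it was not tested.

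Cited2 was the most abundant of the 10 genes in every group by TPM, with 191.4 ± 15.5 TPM in young controls and 201.8 ± 27.1 TPM in older controls (SD, n = 4). It is a short gene at chr10:17723218-17725674 on the plus strand. Its CPM was 273.3, 237.4, 232.8 and 214.3 in young controls and 162.5, 125.4, 123.5 and 163.2 in On T libraries. Older controls had 256.9, 289.5, 236.5 and 236.9 CPM, and Post T libraries 177.2, 144.4, 172.7 and 208.3 CPM. The treated libraries lay under the controls in both cohorts without overlap. The falls were modest: 1.67-fold during treatment (log2 change -0.74, SE 0.13, edgeR adjusted p = 0.00123) and 1.45-fold after it (-0.54, SE 0.12, adjusted p = 0.00776). Both calls held in all 18 alternatives, and the difference between the effects was 0.2 (SE 0.18, edgeR adjusted p = 0.675).

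Cited4, a relative of Cited2, fell further. It ranged over 43.2 to 57.4 CPM in young controls and 7.34 to 15.5 CPM in On T, and over 42.1 to 76.0 CPM in older controls and 7.02 to 11.0 CPM in Post T (log2 changes -2.25 and -2.62, edgeR adjusted p = 9.87e-06 and 8.98e-07). Ep300, the coactivator p300 that CITED proteins bind, was 87.6 to 137.5 CPM in all 16 libraries and passed neither test (0.04 and 0.05, edgeR adjusted p = 0.906 and 0.882). Of 10 listed genes of this group 7 were tested, with 1 higher and 1 lower during treatment and 1 higher and 2 lower after it (medians 0.04 and 0.05), beside 9.27% and 12.3% called among all genes. The hypoxia factor Epas1 rose in both comparisons (0.37 and 0.44, edgeR adjusted p = 0.0289 and 0.00733), with the first call lost in 6 of 18 alternatives (omission of young control 1 or 3 or On T 4 and all 3 limma fits, adjusted p up to 0.132) and the second in the 3 limma fits (up to 0.0728).

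**Figure D3:**
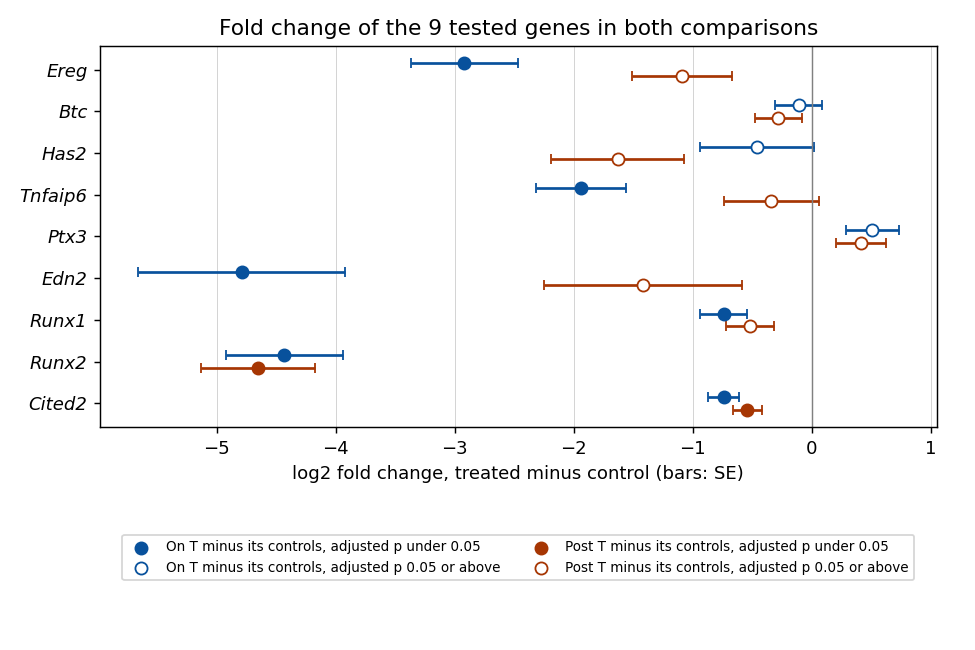
Log2 fold change (horizontal axis, treated minus control, bars SE) of the 9 tested genes for On T and Post T, filled where the edgeR adjusted p is under 0.05. Runx2 and Cited2 are filled in both comparisons, and Ereg, Tnfaip6, Edn2 and Runx1 in On T.

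A call in On T and none in Post T does not show that 2 effects differ, so the difference of effects was tested for each gene. None of the 9 passed with edgeR, and DESeq2 gave none either, against 3.25% of all genes with edgeR. The 3 with an unadjusted p under 0.05 were Ereg (difference 1.83, SE 0.62, edgeR adjusted p = 0.145), Tnfaip6 (1.59, SE 0.55, adjusted p = 0.159) and Edn2 (3.38). Tnfaip6 passed without young control 1 (1.87, edgeR adjusted p = 0.0351, range over 25 alternatives 0.0351 to 0.575). The differences were 0.92 for Ereg, 0.6 for Tnfaip6 and 0.1 for Edn2 without young controls 2 and 4 (edgeR adjusted p = 0.468, 0.575 and 0.961). For Has2 the difference was -1.17 (SE 0.73, edgeR adjusted p = 0.519), and for Runx1 0.22 (SE 0.28, adjusted p = 0.792). These were -2.02 and -0.04 without young controls 2 and 4 (edgeR adjusted p = 0.224 and 0.974), and that of Runx2 was -1.12 (0.378). Between older and young controls none of the 9 passed with edgeR, nor did any of the 18833 genes (0%), although 1892 of these and 3 of the 9 had an unadjusted p under 0.05. DESeq2 called Tnfaip6 and 173 genes in all.

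Most regulators of ovulation made in the follicle wall were not called, and the calls were mostly lower. Of 29 listed, 28 were tested: 9 (32.1%) fell and none rose during treatment (median -0.53), and 8 (28.6%) were lower and 1 higher after it (median -0.29). Among all genes 5.03% were called as lower during treatment and 4.81% after it. The list was chosen with earlier results of these data known, so its shares are no independent comparison with those of all genes. DESeq2 also called none as higher during treatment, and none was higher at an unadjusted p under 0.05. Star and Lhcgr of this list are also among the luteal markers described further on. Adcyap1, the gene of the peptide PACAP, lay at 1.33 to 2.75 CPM in young controls and at 0.0289 to 0.0762 CPM in On T, and at 1.5 to 4.52 CPM in older controls and 0 to 0.178 CPM in Post T (edgeR adjusted p = 5.41e-05 and 1.47e-05). The protease inhibitor Timp1 fell from 156.3 ± 66.9 to 13.5 ± 1.67 CPM and was 25.7 ± 4.06 CPM in Post T against 85.6 ± 30.9 CPM in older controls (log2 changes -3.54 and -1.74, edgeR adjusted p = 4.14e-06 and 0.000815). Without young controls 2 and 4 the On T change of Timp1 was -2.95, still called. The AP-1 factor gene Fosl2 fell by 1.22 and 0.66 on the log2 scale (edgeR adjusted p = 0.00028 and 0.0164), and Rgcc by 0.88 and 1.76 (adjusted p = 0.0458 and 0.000229). The Fosl2 call in Post T was lost without older control 4 or Post T 2 or 4 (edgeR adjusted p up to 0.0659, range from 0.00223). The Rgcc call in On T was lost without young control 2, 3 or 4, young controls 2 and 4 together, or On T 2, 3 or 4 (edgeR adjusted p up to 0.367, range from 0.0127).

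Several defining genes of the ovulatory response did not pass. The luteinizing hormone receptor Lhcgr had log2 differences of -1.46 and -0.02 (edgeR adjusted p = 0.0858 and 0.99), the progesterone receptor Pgr of -0.15 and 0.02 (adjusted p = 0.848 and 0.983), and the protease Adamts1 of -0.88 and -0.71 (adjusted p = 0.0564 and 0.118). Ptgs2, the inducible prostaglandin synthase, was 0.518, 2.24, 0.818 and 2.48 CPM in young controls, highest in libraries 2 and 4 like Edn2, and 0.231 to 0.59 CPM in On T (-1.69, edgeR adjusted p = 0.0577). Ptgs2 passed in 5 of 16 alternatives, those without young control 1 (0.0206) or 3 (0.0453) among them, Adamts1 passed in On T without the same libraries (0.0443 and 0.0191), and Lhcgr without On T 3 (0.0296). Over the alternatives in On T, adjusted p ran from 0.0206 to 0.708 for Ptgs2, from 0.0191 to 0.662 for Adamts1 and from 0.0296 to 0.381 for Lhcgr. With young controls 2 and 4 left out the changes were -0.52 for Ptgs2, -0.29 for Adamts1 and -1.2 for Lhcgr, none of them called (edgeR adjusted p = 0.708, 0.662 and 0.381). The prostaglandin E receptor Ptger2 showed 0.26 and -0.16 (edgeR adjusted p = 0.488 and 0.711). Of 9 oocyte factors that enable cumulus expansion none passed in either comparison with edgeR or DESeq2 (medians -0.08 and 0.09), and 2 and 1 were lower at an unadjusted p under 0.05.

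Of 10 pentraxins and receptors related to Ptx3, 7 were tested. During treatment 1 rose, the neuronal pentraxin receptor Nptxr (0.56, edgeR adjusted p = 0.00787), a call lost without young controls 2 and 4 (0.0509, range over the alternatives 0.000154 to 0.0509). In Post T 4 were higher (median 0.98), beside 7.49% of all genes: the Fc receptors Fcgr1 (0.98, edgeR adjusted p = 0.00155), Fcgr2b (1.07, adjusted p = 0.0074) and Fcgr3 (1.81, adjusted p = 6.48e-05) and P-selectin, Selp (1.06, adjusted p = 0.022). The Selp call was lost in 8 of 18 alternatives (adjusted p up to 0.281), among them the omission of older control 1, 3 or 4 or of Post T 2 or 3. Fc receptors are carried by macrophages, whose markers were higher in Post T as given for Cd44. Fcgr1 is itself among those markers, so the marker levels are not separate from it. The part of these cells in the receptor values was not tested.

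**Figure D4:**
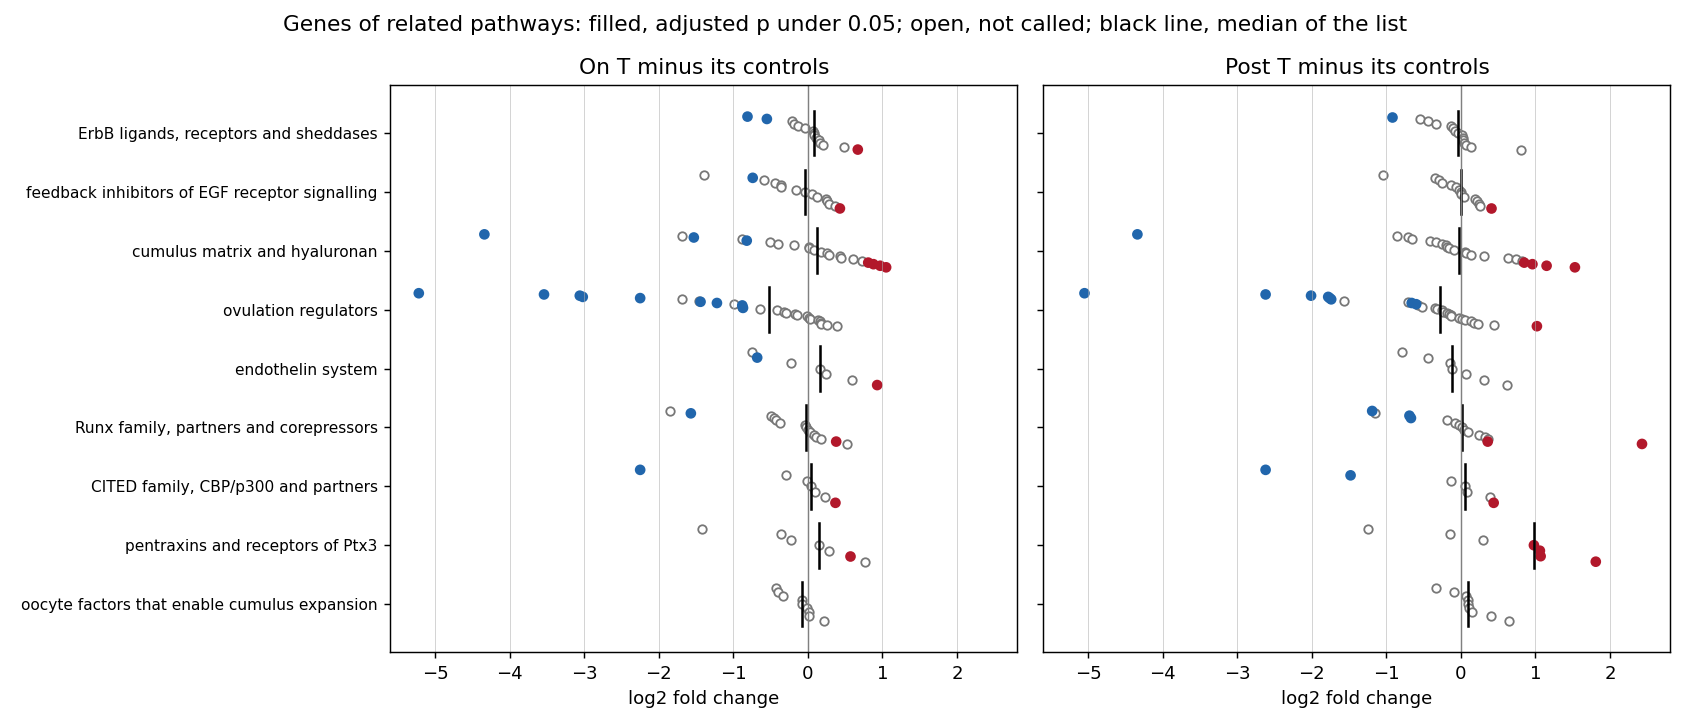
Log2 fold change of the tested genes of 9 related lists in On T (left) and Post T (right), 1 point per gene, filled where the edgeR adjusted p is under 0.05 (blue lower, red higher), with the list's median as a black line. The ovulation regulators have 9 lower and 0 higher calls in On T, and the pentraxin list 4 higher calls in Post T.

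The genes most like each member over the 16 libraries were chosen by Pearson's r of log2 CPM, as a description in which differences between the groups make up much of the likeness. Runx2 was most like Cemip (r = 0.983), Gm2a (0.976), which encodes a lipid-binding activator of lysosomal enzymes, and Gpr141 (0.976). Gm2a averaged 656.4 CPM in young controls and 120.0 CPM in On T, and 827.4 and 192.6 CPM in older controls and Post T. Edn2 was most like Prkg2 (0.953), a cGMP-dependent kinase gene, highest among young controls in libraries 2 and 4, where it had at least 8.51 CPM against at most 2.25 CPM in the other 2, and then Kctd11 (0.939) and Magi3 (0.937). Tnfaip6 was most like Vasn (0.922), Tubb2b (0.891) and Zfp469 (0.889), and Zfp469 was again highest in young controls 2 and 4, with 9.87, 93.9, 20.9 and 76.7 CPM. Ereg was most like Tagln2 (0.952), Klc1 (0.933) and Htr1d (0.923), of which Tagln2 fell from 123.2 to 50.9 CPM with testosterone (log2 change -1.27, edgeR adjusted p = 0.000181).

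Runx1 was most like Mfsd6 (0.925), Arhgef10l (0.918) and Lrrc8c (0.916). Cited2 was most like Inpp5j (0.897), Tmem71 (0.878) and Clstn3 (0.877), and all 3 fell in both comparisons, Tmem71 from 17.8 to 1.96 CPM during treatment and from 17.8 to 3.36 CPM after it (edgeR adjusted p = 1.25e-07 and 5.37e-07). Btc was most like Mettl2 (0.929), Slc38a5 (0.903) and Zswim5 (0.903), none of which passed in either comparison. Has2 was most like Rnf125 (0.892), Mex3a (0.879) and Sez6 (0.863), of which Mex3a and Sez6 were lower in Post T (-0.53 and -1.42, edgeR adjusted p = 0.00804 and 0.0107; that of Sez6 was lost in the 3 limma fits, up to 0.143) and not called in On T. Ptx3 was most like Phf1 (0.896), Peli3 (0.888) and Fzd7 (0.879), and Peli3 rose with testosterone (0.79, edgeR adjusted p = 0.036), a call lost in 12 of 18 alternatives (0.00689 to 0.172), the omission of any 1 young control or of On T 1, 2 or 4 among them.

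Most of the listed markers of the corpus luteum were lower in both treated groups. The summed level of 10 luteal markers was 12104.0 to 14268.5 CPM in young controls and 4895.4 to 8779.4 CPM in On T, with 7 of the 10 lower and none higher. It was 10058.9 to 20922.3 CPM in older controls and 5893.8 to 10315.6 CPM in Post T, with 6 of the 10 lower. No luteal marker was at 0 in any library, and Akr1c18, which inactivates progesterone, was the lowest, at 0.459 to 1.04 CPM in On T against 105.0 to 189.1 CPM in young controls. Granulosa markers gave 0 of 10 calls in each comparison with edgeR and DESeq2, and 6 cumulus markers 0 of 6, with 1 marker of each list higher in On T at an unadjusted p under 0.05 and 0 in Post T. With 9.27% and 12.3% of all genes called, lists of 10 and 6 genes would hold few calls at the background share. The summed granulosa level ran from 7033.3 to 10951.7 CPM in young controls and more widely, from 3951.8 to 13658.8 CPM, in On T, and from 5940.3 to 6984.8 CPM in older controls and 5601.1 to 10673.0 CPM in Post T. The cumulus markers had sums of 489.3 to 966.6 CPM over all 16 libraries. The part of luteal cells in the lower Runx2, Cited2, Ereg, Tnfaip6, Edn2 and Runx1 values was not tested.

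Within each group the order of levels per length, in TPM, changed with treatment. In young controls it ran from Cited2 through Runx2 (20.8 ± 14.8 TPM), Runx1 (17.7 ± 4.98), Edn2 (11.7 ± 12.5), Tnfaip6 (3.86 ± 2.37) and Ptx3 (2.77 ± 0.539) to Btc, Ereg, Areg and Has2 (0.272 ± 0.156 TPM), and neighbours from Runx2 to Ptx3 overlapped within their SD. In On T Runx2 averaged 0.972 ± 0.52 TPM, below Ptx3 at 3.9 ± 1.01 TPM and beside Btc and Tnfaip6 at 1.08 ± 0.233 and 0.985 ± 0.216 TPM. In Post T it averaged 1.33 ± 0.266 TPM against 35.5 ± 21.7 TPM in older controls. Cited2 and Runx1 were the 2 most abundant in On T (113.2 ± 16.3 and 10.2 ± 1.36 TPM) and in Post T (133.6 ± 22.4 and 10.1 ± 2.17 TPM).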

How the data were processed

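RNA-seq counts of 16 mouse ovary libraries (4 per group, grouped by sample title) were analysed from tables of all genes. The authors deposited expected counts and TPM per gene. Per the submitters' processing notes, reads were processed with cutadapt 2.3, FastQC 0.11.8, STAR 2.7.8a and RSEM 1.3.3 on GRCm38. The annotation release and any use of strand in counting are not given in the sources used here. Per the labels' protocols, libraries were poly(A)-selected and directional, which leaves RNA without a poly(A) tail unmeasured. The deposited expected counts were whole numbers, and the deposited FPKM were not used here.

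Counts were tested with edgeR 4.0.16 (R 4.3.3): filterByExpr with a minimum count of 10, TMM scaling, all 16 libraries in 1 quasi-likelihood fit with a mean per group, and Benjamini-Hochberg adjustment over 18833 genes at 0.05. Log2 changes are treated minus control. Alternatives were DESeq2 1.42.0, limma 3.58.1 on log2(TPM + 1) and log2(TPM + 0.1), other scaling and filters, the replicate number as a block, 8 libraries, age as a covariate and each library left out. Omitting young controls 2 and 4 together was chosen after seeing the data. On data simulated for On T, 67 of 100 changes of 2-fold and 94 of 100 of 4-fold were recovered. The changed genes were drawn at random from all tested genes and no other gene was changed. These shares therefore do not give the recovery for the members, some of which had low or widely spread counts. Named genes are the 10 members, 18 fixed genes, up to 4 called genes per list and comparison with the smallest p, and 3 most alike genes per member with a mean of at least 1 CPM. Members and lists were chosen with earlier results of these data known. Of the gene identifiers, 55154 (99.51%) were in GENCODE M21, the source of positions, and promoters are from RefSeq. Floors of 3 counts cover counting error only.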

Additional observations from a re-analysis of the deposited data

Results flagged for a closer look

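In 2 of 40 groups of 4 libraries (10 genes in 4 groups), 1 library stood far from the other 3. Chance alone gives about 1 in 20. Ereg was 0.393 CPM in On T library 2, against 0.202 CPM in the next highest library of that group. Tnfaip6 was 1.25 CPM in Post T library 2, against 0.713 CPM in the next. Young controls 2 and 4 were high together, so neither stood alone in its group for Edn2 or Tnfaip6.

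Among the named genes of the pathway lists, 6 had treatment effects that differed between the cohorts by edgeR's test of the difference (Post T effect minus On T effect, log2). Of all genes tested, 3.25% were called for this difference. Named genes were partly picked for a small p in On T or Post T, the comparisons that make up the difference. Their count is therefore not comparable with that share. The part of macrophages in the values of Cd44, Spp1, Fcgr1 and Fcgr3 was not tested. The difference was 2.35 for Cd44 (edgeR adjusted p = 0.000508), 2.94 for Spp1 (adjusted p = 0.000676), 1.34 for Fcgr1 (adjusted p = 0.00808), 1.52 for Fcgr3 (adjusted p = 0.0198), 1.8 for Timp1 (adjusted p = 0.0274) and -0.7 for Nptxr (adjusted p = 0.034). Cd44 fell in On T and was higher in Post T, while Timp1 was lower in both and less so in Post T. The differences of Cd44, Spp1 and Fcgr1 passed in all 25 alternatives. That of Fcgr3 was lost without young controls 2 and 4 (edgeR adjusted p = 0.0544, range 0.00108 to 0.0544). That of Timp1 was lost in 10 of 25 (range 0.00125 to 0.142): the 3 limma fits, and without young control 2 or 4 or both, On T 1 or 4, or Post T 2 or 3. That of Nptxr was lost in 14 of 25 (range 0.00246 to 0.132): without a filter, in the 3 limma fits, and without young control 1, 3 or 4, young controls 2 and 4 together, On T 1, older control 2 or 4, or Post T 1, 3 or 4. Each cohort had its own controls, and age and cohort cannot be told apart.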

How the results depend on the processing

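For the genes named with a call, none changed direction in the alternatives run for it. Ereg, Runx2 and Cited2 kept their On T calls, and Runx2 and Cited2 their Post T calls, in all alternatives that tested them (17 or 18 each). In On T, limma called 1119 genes (TPM + 1), 1118 (TPM + 0.1) and 983 (mean TPM of at least 1) in place of 1746, and 609 were called without young controls 2 and 4 (215 higher, 394 lower), when 4 of 10 members passed (Areg, Cited2, Ereg and Runx2). Leaving out 1 library gave 1081 to 1764 genes and 5 to 7 members in On T, the lowest without young controls 2 (1094) and 4 (1081). It gave 1753 to 2294 genes and 2 to 3 members in Post T, 453 to 735 genes and 0 to 2 members for the difference of effects, and 0 to 9 genes and 0 to 1 member between the controls, where the 2, the 9 and the 1 were all found without young control 1. With 8 libraries 5 members passed in Post T (Cited2, Edn2, Ereg, Has2 and Runx2). DESeq2 called 999 genes for the difference of effects in place of 612. Between the controls, where edgeR called 0 genes, 20 were called without a filter, 173 with DESeq2 and 16 without young controls 2 and 4, with 1 member (Tnfaip6) called without a filter and 1 with DESeq2. The cause of these shifts was not tested. Whether the replicate numbers pair the samples was not tested. Deviations of same-numbered libraries correlated at -0.019 to 0.13 in On T and 0.042 to 0.233 in Post T. Differently numbered libraries correlated at -0.199 to 0.125 in On T and -0.238 to 0.155 in Post T. Not every library correlated best with its own number. With the number as a replicate block, 1676 genes and 6 members were called in On T, 2274 and 3 in Post T (Has2 added), 567 and 0 for the difference, and 0 between the controls. At these depths Areg, Has2 and Ereg rest on 0 to 95 reads per library.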

Other observations

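Among the partners of the RUNX and CITED proteins, a few genes had calls that were not described above. The corepressor gene Tle4 was 21.1 to 23.2 CPM in young controls and 28.8 ± 1.42 CPM in On T, and 15.7 to 24.1 CPM in older controls and 24.6 to 27.6 CPM in Post T, with no overlap in either comparison (log2 changes 0.38 and 0.36, edgeR adjusted p = 0.0393 and 0.0431). Its relative Tle2 was lower in Post T (43.2 ± 4.32 against 69.8 ± 16.4 CPM, log2 change -0.69, edgeR adjusted p = 0.0286), as was Smad1, which carries BMP signals (41.5 ± 3.02 against 66.0 ± 20.1 CPM, -0.67, adjusted p = 0.00875). Cited1, another CITED gene, was 5.11 to 8.59 CPM in Post T and 7.62 to 45.2 CPM in older controls (-1.48, edgeR adjusted p = 0.041), where library 1 held the highest value. Without older control 1 the Cited1 change was -0.52 and was not called (edgeR adjusted p = 0.282, range over the alternatives 0.0144 to 0.282); its call was lost in 11 of 18 alternatives, the omission of any 1 Post T library among them. The Tle2 call was lost without older control 1 or 4 or Post T 1, 2 or 4 (adjusted p up to 0.12), and the On T call of Tle4 in 12 of 18 alternatives (adjusted p 0.00728 to 0.236), among them the omission of any 1 young control or of On T 1, 2 or 3. The Post T call of Tle4 was lost in 10 of 18 (adjusted p 0.0123 to 0.188), among them the omission of older control 1 or 4 or of Post T 2, 3 or 4.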
